A study of Mus musculus with 23 samples.

Results

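Gene expression after 24 h of all-trans retinoic acid (RA) was compared with gene expression after 24 h in the solvent dimethyl sulfoxide (DMSO) in F9 cells, an established mouse embryonal carcinoma line that grows as pluripotent-like cells. The comparison holds 3 of the series' 23 samples, chosen by their titles: 2 libraries of cells given RA at 1e-07 M for 24 h and 1 library of cells given 0.001% DMSO for 24 h. All cells were plated on gelatine 16 h before treatment, and the groups share the line, the medium and the plates. They differ in RA, and 1 of the RA libraries also differs from the DMSO library in its library set, described below. A DMSO percentage is recorded for the DMSO library and not for the RA libraries. The other 11 mRNA libraries (4 at 0 h, 2 each at 6, 12 and 48 h of RA, and 1 after 48 h in DMSO) entered the fit because a group of 1 library has no spread of its own. The series also holds chromatin immunoprecipitation samples for the RA receptors, which are not used here. F9 is a single line, and the labels do not say whether the RA libraries came from separate cultures, so the p-values describe how these libraries differ among themselves, and that spread may be technical.

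RA acts inside the cell. It binds RA receptors (RARs), which sit on DNA as pairs with retinoid X receptors (RXRs) at repeats of a 6-base half-site, and binding of RA turns the pair from a holder of corepressors into an activator. Embryonal carcinoma cells are a classical model of this switch: given RA they leave the pluripotent state and take on features of primitive endoderm, the extraembryonic layer that makes the yolk sac and its basement membranes.

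The 3 libraries held 9165415 (RA replicate 1), 10722775 (RA replicate 2) and 7625521 (DMSO) counts in genes, within the range of 7078941 to 10948932 over all 14 mRNA libraries. The libraries fell into 2 sets by the share of reads that hit no annotated gene: 57.3 to 59.43% of the reads given to a gene or to none in set 1 and 52.51 to 53.77% in set 2. DMSO and RA replicate 1 were in set 1 and RA replicate 2 was in set 2, and 6794 of the genes tested (42.1%) differed between the sets (22.0% higher and 20.1% lower in set 2), so the fit carried a term for the set. The RA 24 h libraries also stood apart from each other. The chi-square per degree of freedom between them was 66.9, against 34.5 to 41.0 for the other pairs of replicates in different sets. This value is the same from either side, so it does not say which of the RA libraries differs. Results that rest on RA replicate 1, or on the set term, are named beside each group of genes. What part the set and RA replicate 1 have in the results was not tested.

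Before the values, the promoters of 3 genes are shown, because each carries a direct repeat of the kind that RAR and RXR pairs bind and because the genes rose: Rarb, which encodes an RA receptor, Cyp26a1, which encodes an enzyme that degrades RA, and Tinagl1, which encodes a matrix protein. Each line gives the 120 bases that end at the base before the annotated start, 5′ to 3′ on the gene's strand, from RefSeq (GRCm38.p6), in lower case with the repeat in capitals.
Rarb: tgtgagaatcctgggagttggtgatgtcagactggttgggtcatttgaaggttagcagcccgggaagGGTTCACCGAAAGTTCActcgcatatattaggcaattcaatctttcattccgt
Cyp26a1: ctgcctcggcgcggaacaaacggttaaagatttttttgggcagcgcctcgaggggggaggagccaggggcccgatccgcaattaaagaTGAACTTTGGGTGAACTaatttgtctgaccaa
Tinagl1: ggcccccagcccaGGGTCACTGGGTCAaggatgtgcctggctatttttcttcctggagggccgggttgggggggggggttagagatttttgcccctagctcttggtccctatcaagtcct

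The Rarb stretch lies at chr14:16575477-16575596, minus strand, that of Cyp26a1 at chr19:37697688-37697807, plus strand, and that of Tinagl1 at chr4:130175123-130175242, minus strand. The half-sites searched, on both strands, were AGGTCA with its variants GGGTCA and AGTTCA and also GGTTCA, as direct repeats with 1, 2 or 5 bases between them. In Rarb the repeat has 5 bases between the half-sites and runs from -53 to -37 relative to the start. In Cyp26a1 it also has 5 bases, lies on the other strand and runs from -32 to -16, and in Tinagl1 it has 2 bases and runs from -107 to -94. Over the window of 250 bases before to 50 after the start, a repeat with 5 bases was found in 31 of 27025 genes (0.115%), in 5 of the 10880 tested genes with a promoter in the table (0.046%), and in 2 of the 704 of those that were higher in RA (0.284%), which are Rarb and Cyp26a1. None of the 556 lower genes held it. A repeat with 2 bases was found in 2 of the 704 higher genes, Tinagl1 and Slc25a21, and in 14 of the tested genes (0.129%), and a repeat with 1 base in 1 higher gene and 30 tested genes (0.276%). These are letter matches and do not show binding. The Rarb repeat was matched only through the half-site GGTTCA. Rarb and Cyp26a1 are among the genes fixed for naming whatever their result. Tinagl1 and Slc25a21 were named after the matches were seen. With so few matches, the shares describe these genes and are no test of a link between the repeats and the calls.

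After 24 h, 1687 of 16155 genes tested (10.4%) differed between RA and DMSO at a Benjamini-Hochberg adjusted p under 0.05 in edgeR's quasi-likelihood test, 942 of them higher with RA (5.83%) and 745 lower (4.61%). The median log2 change was 1.95 among the higher genes (1.89 when genes with no count in DMSO are set to their lower bound) and -0.98 among the lower genes, against 0.00103 over all genes tested. A fitted log2 change of 3 or more was seen for 274 higher genes and of -3 or less for 57 lower genes. The 274 include genes with no count in DMSO at their fitted change and not at their bound. The medians are of called genes only and so depend on which changes could be called. Neither these counts nor the medians therefore measure whether increases exceed decreases in size. Both RA libraries lay on the called side of the DMSO library for 1638 of the 1687 genes. Of the higher genes, 96 had no count in the DMSO library and 80 had 1 to 3, so for these a ratio is a lower bound against 3 counts (0.418 CPM) or is given with its 95% counting interval, which covers counting error only. Values below are CPM, counts brought to a common library size with scaling by the trimmed mean of M-values, in the order RA replicate 1, RA replicate 2 and DMSO, and changes are log2 of RA over DMSO with their standard error. CPM is not divided by gene length, so levels are compared between libraries and not between genes. Counts of called genes on the lists below stand against the shares over all genes tested, 5.83% higher and 4.61% lower. The lists were chosen with earlier results of these data known, so their shares describe these libraries and are no test.

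Without the set term 305 genes were called (1.89% of those tested), 209 higher (1.29%) and 96 lower (0.594%), and all 305 are among the 1687. With RA replicate 1 as the only RA library, which is the comparison within set 1, 2682 genes were called (16.7%), 1227 higher (7.63%) and 1455 lower (9.04%). With RA replicate 2 as the only RA library 587 were (3.64%), 392 higher (2.43%) and 195 lower (1.21%).

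**Figure D1:**
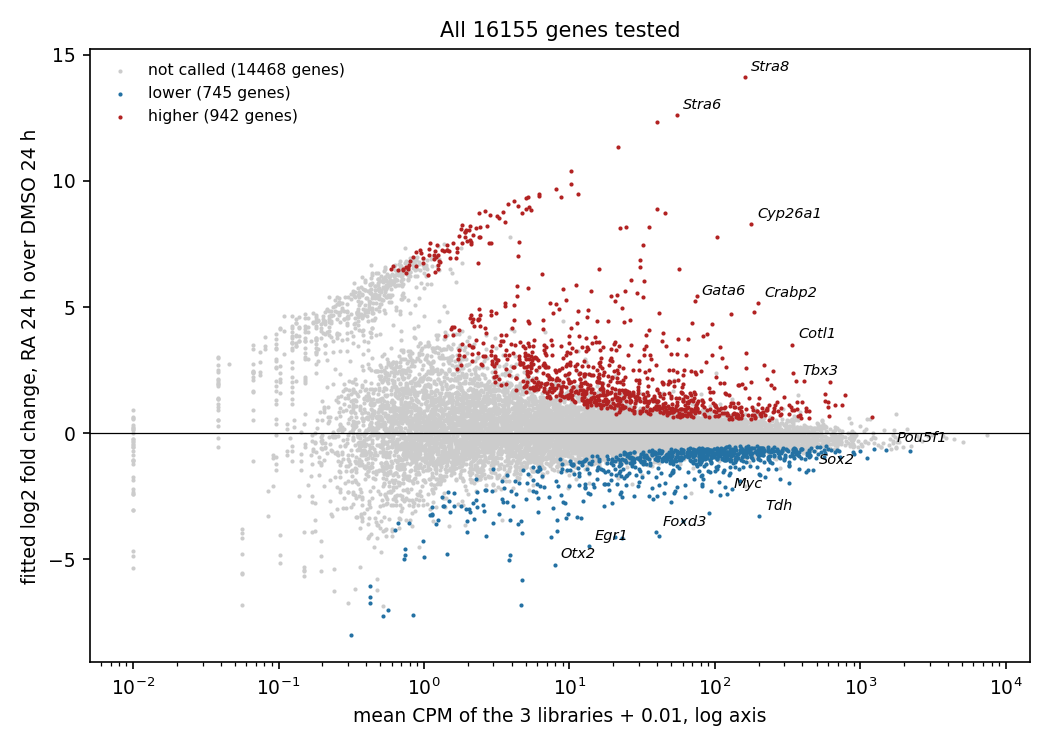
Fitted log2 fold change of RA over DMSO at 24 h against the mean CPM of the 3 libraries (log axis) for each of the 16155 genes tested; red and blue points are the 942 higher and 745 lower genes. The band of points along the upper left is made of genes with 0 counts in the DMSO library, whose fitted change depends on their counts in RA.

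Of 15 tested members of a list for RA degradation, uptake and binding, 7 were higher and none was lower, with a median log2 change of 3.41 (2.17 with genes at 0 in DMSO set to their bounds). The 3 CYP26 enzymes, which oxidise RA and so limit its action, went from at or near 0 to clear expression. Cyp26a1 had 286 and 244 CPM against 0.696 (log2 change 8.28 ± 0.85, adjusted p = 0.000281). Cyp26b1 had 88.0 and 31.6 CPM against 0 (at least 136-fold higher, adjusted p = 0.00381). Cyp26c1 had 11.2 and 3.76 CPM against 0 (at least 16.9-fold higher, adjusted p = 0.00269). For each enzyme both RA libraries lay above the DMSO library, and RA replicate 1 was the higher of the pair. Stra6, a membrane receptor that imports retinol, had 92.7 and 71.5 CPM against 0 (at least 194-fold higher, adjusted p = 4.33e-06). Crabp2, which carries RA to the nucleus, had 356 and 226 CPM against 9.47 (log2 change 5.17 ± 0.27, adjusted p = 3.12e-07). Dhrs3, which reduces retinal and so lowers RA synthesis, had 65.7 and 30.7 CPM against 0.835 (log2 change 6.01 ± 0.51, adjusted p = 1.10e-05). The members named here were also called without the set term and with each RA library alone, although Cyp26b1 missed the threshold when no filter on low counts was used (adjusted p = 0.0514).

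Of the receptors and their corepressors, 2 of 12 were higher and 1 lower (median log2 change -0.21). Rarb, the receptor gene whose promoter repeat is shown above, had 33.6 and 38.5 CPM against 0.696 (log2 change 5.63 ± 0.47, adjusted p = 1.00e-05). Rarg, Rara and Rxra did not pass the test. Rarg had 480.1 and 331 CPM against 593 (log2 change -0.37 ± 0.22, adjusted p = 0.286). Rara had 149 and 88.3 CPM against 175 (log2 change -0.23 ± 0.23, adjusted p = 0.566). Rxra had 46.7 and 27.1 CPM against 50.96 (log2 change -0.07 ± 0.27, adjusted p = 0.896). In each of these 3 the RA libraries lay below the DMSO library, by less than the test could call. Rxrg, a further retinoid X receptor, fell from 13.5 CPM in DMSO to 2.56 and 2.05 (log2 change -2.56 ± 0.66, adjusted p = 0.0269). Nrip1, a corepressor that binds liganded nuclear receptors, had 79.8 and 121 CPM against 16.99 (log2 change 2.44 ± 0.37, adjusted p = 0.00128). Dropping the set term ended calls, with the adjusted p in brackets, for Rxrg (0.0908). Leaving out RA 24 h replicate 1 ended those for Rxrg (0.144). The fit with other libraries left out ended that of Rxrg without RA 24 h replicate 2 (0.0857).

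On a list of early RA target genes 13 of 20 were higher and 2 lower. Many are described with their families, and 3 stand alone. Stra8, which germ cells need to enter meiosis and which was first found as an RA-induced gene in embryonal carcinoma cells, had the largest rise of any gene that met the naming rule, with 259.7 and 225 CPM against 0 (at least 575-fold higher, adjusted p = 0.000179). Zfp703, a zinc finger repressor, had 202 and 109 CPM against 0.696 (log2 change 7.77 ± 0.67, adjusted p = 2.64e-05). Tinagl1 had 43.9 and 24.3 CPM against 1.25 (log2 change 4.95 ± 0.58, adjusted p = 0.000170). Slc25a21, a mitochondrial carrier, had 7.14 and 7.01 CPM against 0 (at least 16.9-fold higher, adjusted p = 0.0182). The adjusted p without the set term, in brackets, was above the threshold for Slc25a21 (0.102). The calls that needed RA 24 h replicate 1 were those of Slc25a21 (0.111). At 0 h the 4 libraries were also low for Stra8, with lowest, median and highest values of 0, 0.401 and 1.75 CPM.

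**Figure D2:**
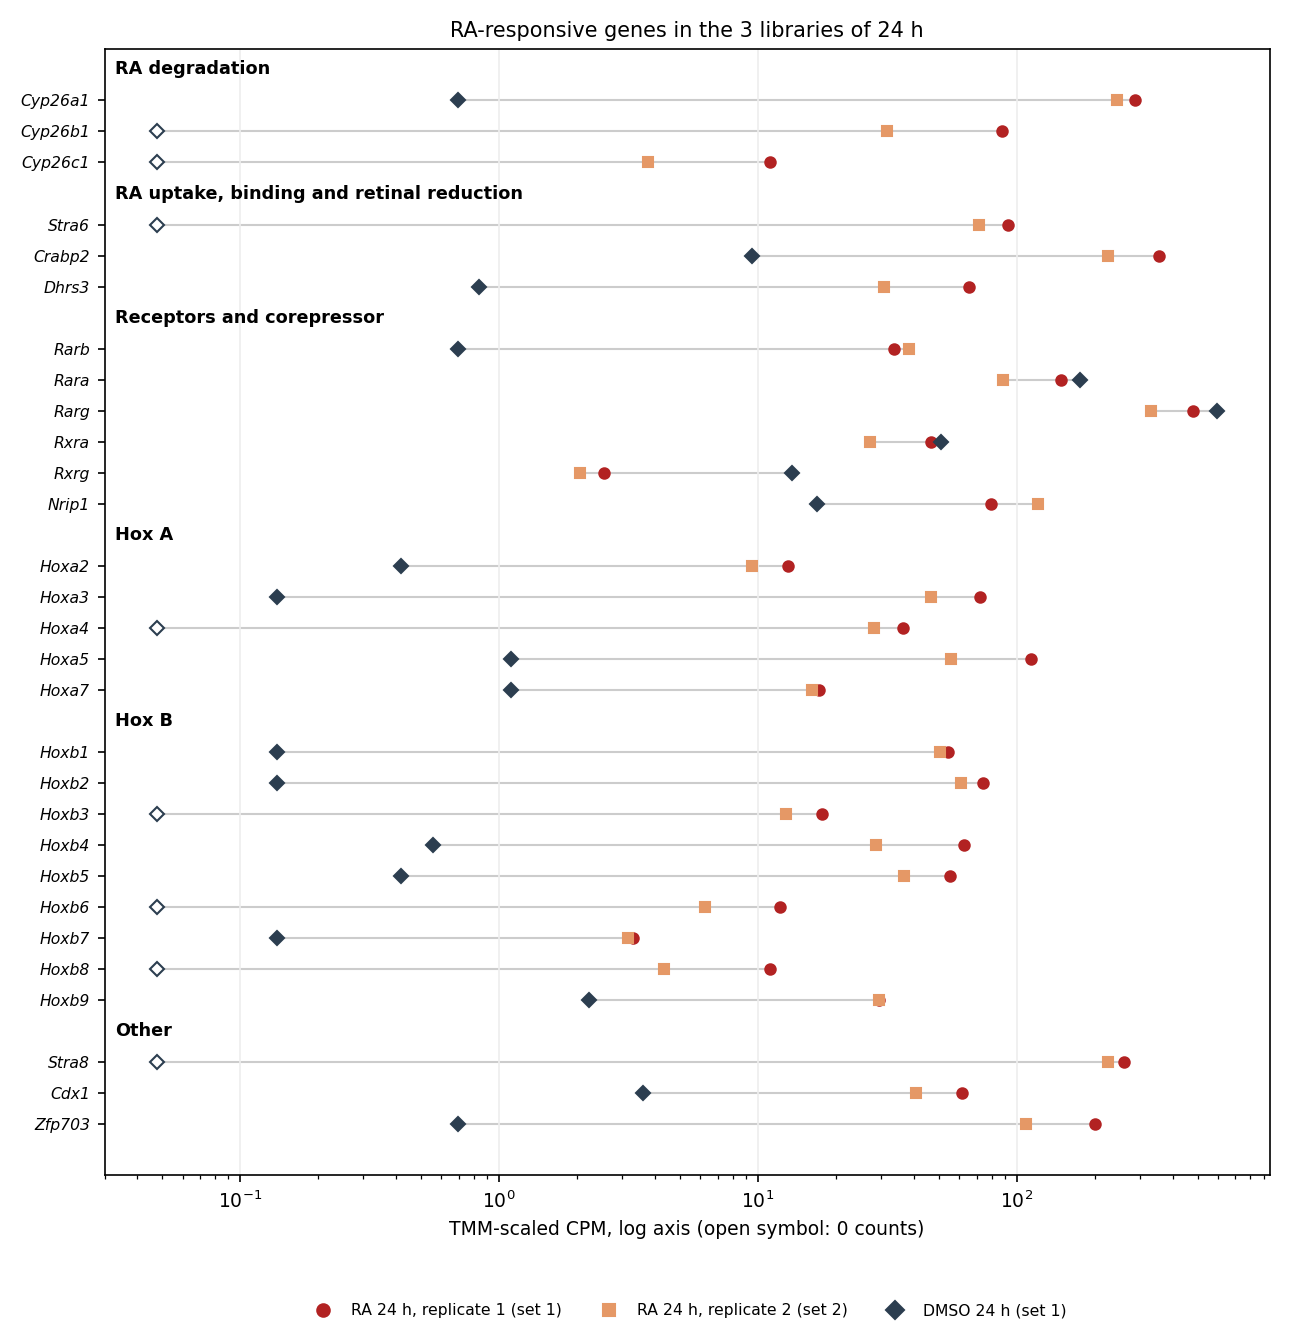
TMM-scaled CPM (log axis) of RA-handling, receptor and Hox genes in the 3 libraries; open symbols mark 0 counts, drawn at the left edge. The RA libraries lie far to the right of the DMSO library for the CYP26, Stra6, Rarb and Hox genes and near or left of it for Rara, Rarg and Rxra.

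Hox genes, the clustered regulators of position along the body axis, included called genes in the A, B and C clusters. In the B cluster 9 of 10 tested members were higher and none lower (median log2 change 7.502, 4.79 with bounds), and the exception, Hoxb13, had 2.56 and 0.941 CPM against 0.139 (log2 change 3.42 ± 1.44, adjusted p = 0.144). Summed over the cluster, the level was 322 and 234 CPM against 3.76. In the A cluster 6 of 10 were higher (median 5.63, 3.66 with bounds), all from its 3′ part and middle and Hoxa2 to Hoxa5 and Hoxa7 among them, with a summed level of 308 and 249 CPM against 7.66. Of the C and D clusters 2 of 14 were higher, Hoxc4 with 3.30 and 2.91 CPM against 0 (at least 7.38-fold higher, adjusted p = 0.0175) and Hoxc5 with 6.60 and 3.25 CPM against 0 (at least 11.4-fold higher, adjusted p = 0.00721).

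Within the B cluster the gene nearest the 3′ end, Hoxb1, had 54.3 and 50.7 CPM against 0.139 (count ratio 376, counting interval 67.3 to 14855, adjusted p = 7.60e-05). Hoxb2 had 74.0 and 61.2 CPM against 0.139 (count ratio 481, counting interval 86.1 to 18999.9, adjusted p = 4.33e-06). Hoxb3 had 17.7 and 12.9 CPM against 0 (at least 36.0-fold higher, adjusted p = 0.000274). These were all at 0 or 1 count in the DMSO library. Hoxb4 had 62.7 and 28.6 CPM against 0.557 (log2 change 6.59 ± 0.83, adjusted p = 0.000407). Hoxb5 had 55.2 and 36.8 CPM against 0.418 (count ratio 108, counting interval 36.7 to 523, adjusted p = 1.20e-05). At the 5′ side Hoxb6 had 12.1 and 6.24 CPM against 0 (at least 21.2-fold higher, adjusted p = 0.00903). Hoxb7 had 3.30 and 3.16 CPM against 0.139 (count ratio 23.2, counting interval 4.02 to 928, adjusted p = 0.0345). Hoxb8 had 11.2 and 4.36 CPM against 0 (at least 17.7-fold higher, adjusted p = 0.00289). Hoxb9 had 29.3 and 29.3 CPM against 2.23 (log2 change 3.52 ± 0.64, adjusted p = 0.00381). In the A cluster Hoxa2 had 13.1 and 9.49 CPM against 0.418 (count ratio 26.6, counting interval 8.98 to 129.8, adjusted p = 0.000318). Hoxa3 had 72.3 and 46.9 CPM against 0.139 (count ratio 418, counting interval 74.9 to 16524, adjusted p = 1.14e-05). Hoxa4 had 36.3 and 28.1 CPM against 0 (at least 76.1-fold higher, adjusted p = 1.20e-05). Hoxa5 had 114 and 55.7 CPM against 1.11 (log2 change 6.50 ± 0.48, adjusted p = 4.63e-06). Hoxa7 had 17.3 and 16.2 CPM against 1.11 (log2 change 3.87 ± 0.50, adjusted p = 0.000357). Hoxaas2, an antisense transcript of the A cluster, had 13.1 and 17.5 CPM against 0 (at least 37.2-fold higher, adjusted p = 9.14e-05). Whether counting used strand is not given in the sources used here, so its reads and those of overlapping Hox genes cannot be told apart. Without the library set term the calls of Hoxb6 (0.0540), Hoxb7 (0.135) and Hoxc4 (0.0669) ended (adjusted p in brackets). Without RA 24 h replicate 1 those of Hoxb6 (0.0563), Hoxb7 (0.142), Hoxc4 (0.102) and Hoxc5 (0.0759) ended. Other libraries left out ended that of Hoxb7 (up to 0.0562) when any one of RA 6 h replicates 1 and 2 and RA 12 h replicates 1 and 2 was left out.

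The Hox genes also made up the longest runs of neighbouring called genes. Taking protein-coding tested genes in chromosome order, 3 runs of 4 or more genes were called in the same direction, all higher: Hoxb9 to Hoxb1 on chromosome 11 (9 genes), Skap2 with its neighbours in the Hox A cluster on chromosome 6 (6 genes), and Hvcn1, Tctn1, Pptc7 and Rad9b on chromosome 5 (4 genes). In the last run Pptc7, a mitochondrial phosphatase, had 176 and 112 CPM against 40.0 (log2 change 2.01 ± 0.20, adjusted p = 4.02e-05). Rad9b, a checkpoint clamp subunit, had 91.9 and 42.9 CPM against 21.6 (log2 change 1.87 ± 0.31, adjusted p = 0.00197). Hvcn1, a proton channel, had 53.3 and 54.7 CPM against 24.9 (log2 change 1.097 ± 0.23, adjusted p = 0.00857). Tctn1, a ciliary protein, had 28.8 and 22.1 CPM against 14.8 (log2 change 0.85 ± 0.25, adjusted p = 0.0448). Dropping the set term ended calls, with the adjusted p in brackets, for Rad9b (0.157) and Tctn1 (0.199). Leaving out RA 24 h replicate 1 ended those for Tctn1 (0.222). The fit with other libraries left out ended that of Tctn1 (up to 0.0758) when any one of 0 h replicates 2 and 4, RA 6 h replicates 1 and 2, RA 12 h replicates 1 and 2 and RA 48 h replicates 1 and 2 was left out.

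Among Hox cofactors and related regulators 4 of 17 were higher and 1 lower (median log2 change 1.14, 0.65 with bounds). Cdx1, a homeobox regulator of Hox genes and an RA target in the embryo, had 61.3 and 40.9 CPM against 3.62 (log2 change 4.09 ± 0.50, adjusted p = 0.000253). Pbx2, a partner of Hox proteins on DNA, had 189 and 117 CPM against 53.9 (log2 change 1.56 ± 0.24, adjusted p = 0.00131). Pknox2, of the same homeodomain superclass, had 22.9 and 14.1 CPM against 2.09 (log2 change 3.27 ± 0.46, adjusted p = 0.000675). Nr5a2, a nuclear receptor that supports Pou5f1 expression, fell with 16.6 and 38.7 CPM against 73.1 (log2 change -1.59 ± 0.32, adjusted p = 0.00673). With no set term, Nr5a2 (0.101) missed the threshold at the adjusted p in brackets.

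Of 19 tested regulators of primitive endoderm 10 were higher and 1, Otx2, was lower (median log2 change 2.20). Gata6, which starts the primitive endoderm programme, had 131 and 85.2 CPM against 3.76 (log2 change 5.23 ± 0.69, adjusted p = 0.00104). Gata4, its close relative, had 137 and 39.4 CPM against 12.4 (log2 change 3.09 ± 0.45, adjusted p = 0.00123). Both RA libraries were above DMSO for each, with RA replicate 1 the higher. Foxa1, a pioneer factor of endoderm, had 48.2 and 47.2 CPM against 1.11 (log2 change 5.42 ± 0.40, adjusted p = 4.63e-06), with RA libraries that were nearly equal. Foxa2 had 8.95 and 2.39 CPM against 0 (at least 12.7-fold higher, adjusted p = 0.00306). Foxq1, a forkhead factor, had 71.6 and 15.3 CPM against 1.11 (log2 change 5.57 ± 0.86, adjusted p = 0.00274). Sox17 had 6.50 and 1.03 CPM against 0.278 (count ratio 12.4, counting interval 3.32 to 105, adjusted p = 0.00271). Sox7 had 163 and 157 CPM against 79.4 (log2 change 1.19 ± 0.34, adjusted p = 0.0403). Pdgfra, a growth factor receptor of primitive endoderm, had 20.8 and 5.99 CPM against 1.95 (log2 change 3.23 ± 0.83, adjusted p = 0.0309). Dab2, an endocytic adaptor that marks this lineage, had 24.1 and 11.8 CPM against 3.06 (log2 change 2.82 ± 1.48, adjusted p = 0.272) and was not called, although both RA libraries lay above DMSO; at 0 h it ranged from 0.466 to 12.2 CPM. In the fit with no set term the calls of Gata6 (0.0617), Gata4 (0.101), Foxa2 (0.0883), Foxq1 (0.0657), Sox17 (0.258), Sox7 (0.290) and Pdgfra (0.370) ended (adjusted p in brackets). Without RA 24 h replicate 1 those of Sox7 (0.100) and Pdgfra (0.189) ended. Other libraries left out ended that of Sox7 without RA 24 h replicate 2 (0.0785), that of Sox7 (up to 0.0583) when any one of RA 6 h replicate 1 and RA 12 h replicates 1 and 2 was left out and that of Pdgfra (up to 0.0512) when any one of RA 12 h replicates 1 and 2 was left out.

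Marker sums over fixed lists place the 3 libraries. The 8 embryonal carcinoma markers summed to 3224 and 2736 CPM in RA against 5817 in DMSO, and none was at 0. The 10 markers of primitive and parietal endoderm summed to 1900.0 and 1189.7 CPM in RA against 880.2 in DMSO, where Foxa2 was at 0. Visceral endoderm markers were nearly absent at 13.95 and 6.41 CPM against 10.6, with Afp, Apoa4 and Ttr at 0 in all 3 libraries. Neural markers summed to 231.9 and 176.2 CPM against 237.8, trophoblast markers to 10.9 and 14.9 against 7.10, and mesoderm markers to 2.66 and 4.19 against 5.01. Blood markers were at 0 in all 3 libraries, and the fibroblast markers were close to 0 apart from Thy1, a surface glycoprotein, with 2.77 and 3.16 CPM against 22.0 (log2 change -2.75 ± 0.52, adjusted p = 0.00476). In bulk RNA fewer cells of a type and less RNA per cell cannot be told apart. Leaving out RA 24 h replicate 1 ended the call of Thy1 (0.0766), adjusted p in brackets.

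On a list of parietal endoderm and basement membrane genes 9 of 28 were higher and 1 was lower (median log2 change 1.47, 1.15 with bounds). Col4a1 and Col4a2, which encode chains of collagen IV, the network collagen of basement membranes, rose. Col4a1 had 543 and 376 CPM against 112 (log2 change 2.37 ± 0.38, adjusted p = 0.00269). Col4a2 had 390.0 and 202 CPM against 63.1 (log2 change 2.71 ± 0.52, adjusted p = 0.00903). Of the laminin-111 chains, the alpha chain was called and the others were not: Lama1 had 469.7 and 196 CPM against 83.7 (log2 change 2.45 ± 0.22, adjusted p = 1.87e-05), whereas Lamb1 had 139 and 92.5 CPM against 86.2 (log2 change 0.56 ± 0.27, adjusted p = 0.194). Lamc1 had 429.7 and 427 CPM against 391 (log2 change 0.27 ± 0.17, adjusted p = 0.331). Hspg2, which encodes perlecan, had 485 and 222 CPM against 182 (log2 change 1.44 ± 0.17, adjusted p = 0.000232). P4ha2, a collagen prolyl hydroxylase, had 25.3 and 28.8 CPM against 7.94 (log2 change 1.76 ± 0.35, adjusted p = 0.00592). Sparc, a matrix protein made in large amounts by parietal endoderm, had 727 and 418 CPM against 581 (log2 change 0.28 ± 0.19, adjusted p = 0.388), with RA libraries on either side of DMSO. The plasminogen activators rose: Plat, a product long used as a sign of F9 differentiation, had 29.6 and 15.6 CPM against 1.11 (log2 change 4.44 ± 0.55, adjusted p = 0.000273). Plau had 7.24 and 7.87 CPM against 0 (at least 18.2-fold higher, adjusted p = 0.0155). Srgn, the proteoglycan serglycin, had 16.3 and 11.5 CPM against 2.65 (log2 change 2.71 ± 0.75, adjusted p = 0.0397). The calls that ended when the set term was dropped were those of Col4a1 (0.154), Col4a2 (0.279), Lama1 (0.290), Hspg2 (0.617), Plau (0.0899) and Srgn (0.277), with the adjusted p in brackets. The absence of RA 24 h replicate 1 ended those of Col4a2 (0.0743), Plau (0.0836) and Srgn (0.154). Single other libraries also mattered, and their absence ended that of Srgn without RA 24 h replicate 2 (0.0551) and that of Srgn (up to 0.0527) when any one of 0 h replicate 1 and RA 6 h replicate 1 was left out.

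Products of visceral endoderm, the other derivative of primitive endoderm, had 0 of 10 tested genes higher by edgeR and 1 lower (median log2 change 0.22, 0 with bounds). That is 10.0% called, against 10.4% of all genes tested, and 1 had an unadjusted p under 0.05. The lower gene, Tdgf1, is also among the embryonal carcinoma markers and is described with the pluripotency genes. Its fall is therefore no measure of visceral endoderm.

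Of 38 genes of the pluripotency network 15 were lower and 2 were higher, which is 39.5% lower against 4.61% of all genes. The median log2 change was -0.68. Without the set term 5 members were lower and 0 higher. Summed over the list the level was 9916 and 8916 CPM against 14845. The decreases differed in size. Sox2, a core factor, had 274 and 279 CPM against 866 (log2 change -1.47 ± 0.25, adjusted p = 0.00254), while Pou5f1, which encodes OCT4, had 1597 and 938 CPM against 2311 (log2 change -0.61 ± 0.24, adjusted p = 0.122). Nanog had 231 and 345 CPM against 284 (log2 change -0.17 ± 0.26, adjusted p = 0.726). Pou5f1 was below DMSO in both RA libraries without passing the test, and the RA libraries of Nanog lay on either side of it. Tdh, which encodes the threonine dehydrogenase that mouse pluripotent cells rely on, fell most on the list, with 42.1 and 54.0 CPM against 505 (log2 change -3.30 ± 0.24, adjusted p = 4.33e-06). Tdgf1, a coreceptor of Nodal, had 59.5 and 61.6 CPM against 275 (log2 change -2.20 ± 0.43, adjusted p = 0.00993). Utf1, a chromatin factor of stem cells, had 194 and 77.3 CPM against 698 (log2 change -1.96 ± 0.34, adjusted p = 0.00438). Zfp42, which encodes REX1, had 296 and 266 CPM against 679 (log2 change -1.01 ± 0.23, adjusted p = 0.0131). Fgf4, the growth factor that stem cells make, had 32.2 and 73.8 CPM against 133 (log2 change -1.68 ± 0.32, adjusted p = 0.00514). Sall1, a zinc finger factor, had 11.9 and 41.4 CPM against 70.3 (log2 change -2.04 ± 0.33, adjusted p = 0.00205). Dppa4, a stem cell chromatin protein, had 36.2 and 34.1 CPM against 71.1 (log2 change -0.92 ± 0.18, adjusted p = 0.00506). Some genes of the naive network were not called: Esrrb had 268 and 281 CPM against 299 (log2 change -0.05 ± 0.18, adjusted p = 0.883). Tfcp2l1 had 277 and 301 CPM against 215 (log2 change 0.54 ± 0.30, adjusted p = 0.270). Klf4 had 50.8 and 24.8 CPM against 24.1 (log2 change 0.95 ± 0.38, adjusted p = 0.124). Tbx3, a T-box factor of naive cells that is also known in endoderm differentiation, rose with 659.5 and 279 CPM against 152 (log2 change 2.08 ± 0.34, adjusted p = 0.00219). With no set term, Utf1 (0.150), Zfp42 (0.153), Fgf4 (0.202), Sall1 (0.338) and Tbx3 (0.402) missed the threshold at the adjusted p in brackets. So did Tdgf1 (0.1204), Utf1 (0.0595), Zfp42 (0.134) and Fgf4 (0.0629) without RA 24 h replicate 1.

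Lists of DNA methylation enzymes and Polycomb subunits had lower and no higher genes. On the list of DNA methylation enzymes 4 of 10 were lower and none higher (median log2 change -0.39). Dnmt3b, a de novo methyltransferase, had 67.8 and 84.6 CPM against 188 (log2 change -1.53 ± 0.20, adjusted p = 0.000352). Dnmt3l, its catalytically inactive cofactor, had 35.1 and 52.5 CPM against 157 (log2 change -2.09 ± 0.34, adjusted p = 0.00286). Tet1, which oxidises methylcytosine, had 63.3 and 195 CPM against 346 (log2 change -1.61 ± 0.42, adjusted p = 0.0367). Uhrf1, which recruits the maintenance enzyme, had 342 and 274 CPM against 550.2 (log2 change -0.64 ± 0.16, adjusted p = 0.0222). For all 4 both RA libraries lay below DMSO. Of 17 Polycomb subunits 5 were lower and none higher (median -0.02). Cbx7, the chromodomain subunit typical of stem cells, had 82.4 and 98.0 CPM against 186 (log2 change -1.04 ± 0.18, adjusted p = 0.00252). Jarid2, a targeting subunit, had 333 and 434 CPM against 731 (log2 change -0.98 ± 0.17, adjusted p = 0.00274). Ezh2, the methyltransferase itself, had 109 and 161 CPM against 194 (log2 change -0.67 ± 0.19, adjusted p = 0.0420). Phf19 had 13.3 and 17.3 CPM against 34.1 (log2 change -1.0004 ± 0.29, adjusted p = 0.0439). The adjusted p without the set term, in brackets, was above the threshold for Dnmt3b (0.0929), Dnmt3l (0.0669), Tet1 (0.150), Uhrf1 (0.217), Ezh2 (0.359) and Phf19 (0.141). The calls that needed RA 24 h replicate 1 were those of Dnmt3l (0.0660), Uhrf1 (0.125), Ezh2 (0.269) and Phf19 (0.315). Another library left out ended that of Tet1 (up to 0.0535) when any one of 0 h replicates 2 and 3 was left out, that of Ezh2 (up to 0.0657) when any one of 0 h replicate 4, RA 6 h replicates 1 and 2 and RA 12 h replicates 1 and 2 was left out and that of Phf19 (up to 0.0755) when any one of 0 h replicate 2, RA 6 h replicates 1 and 2 and RA 12 h replicates 1 and 2 was left out.

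**Figure D3:**
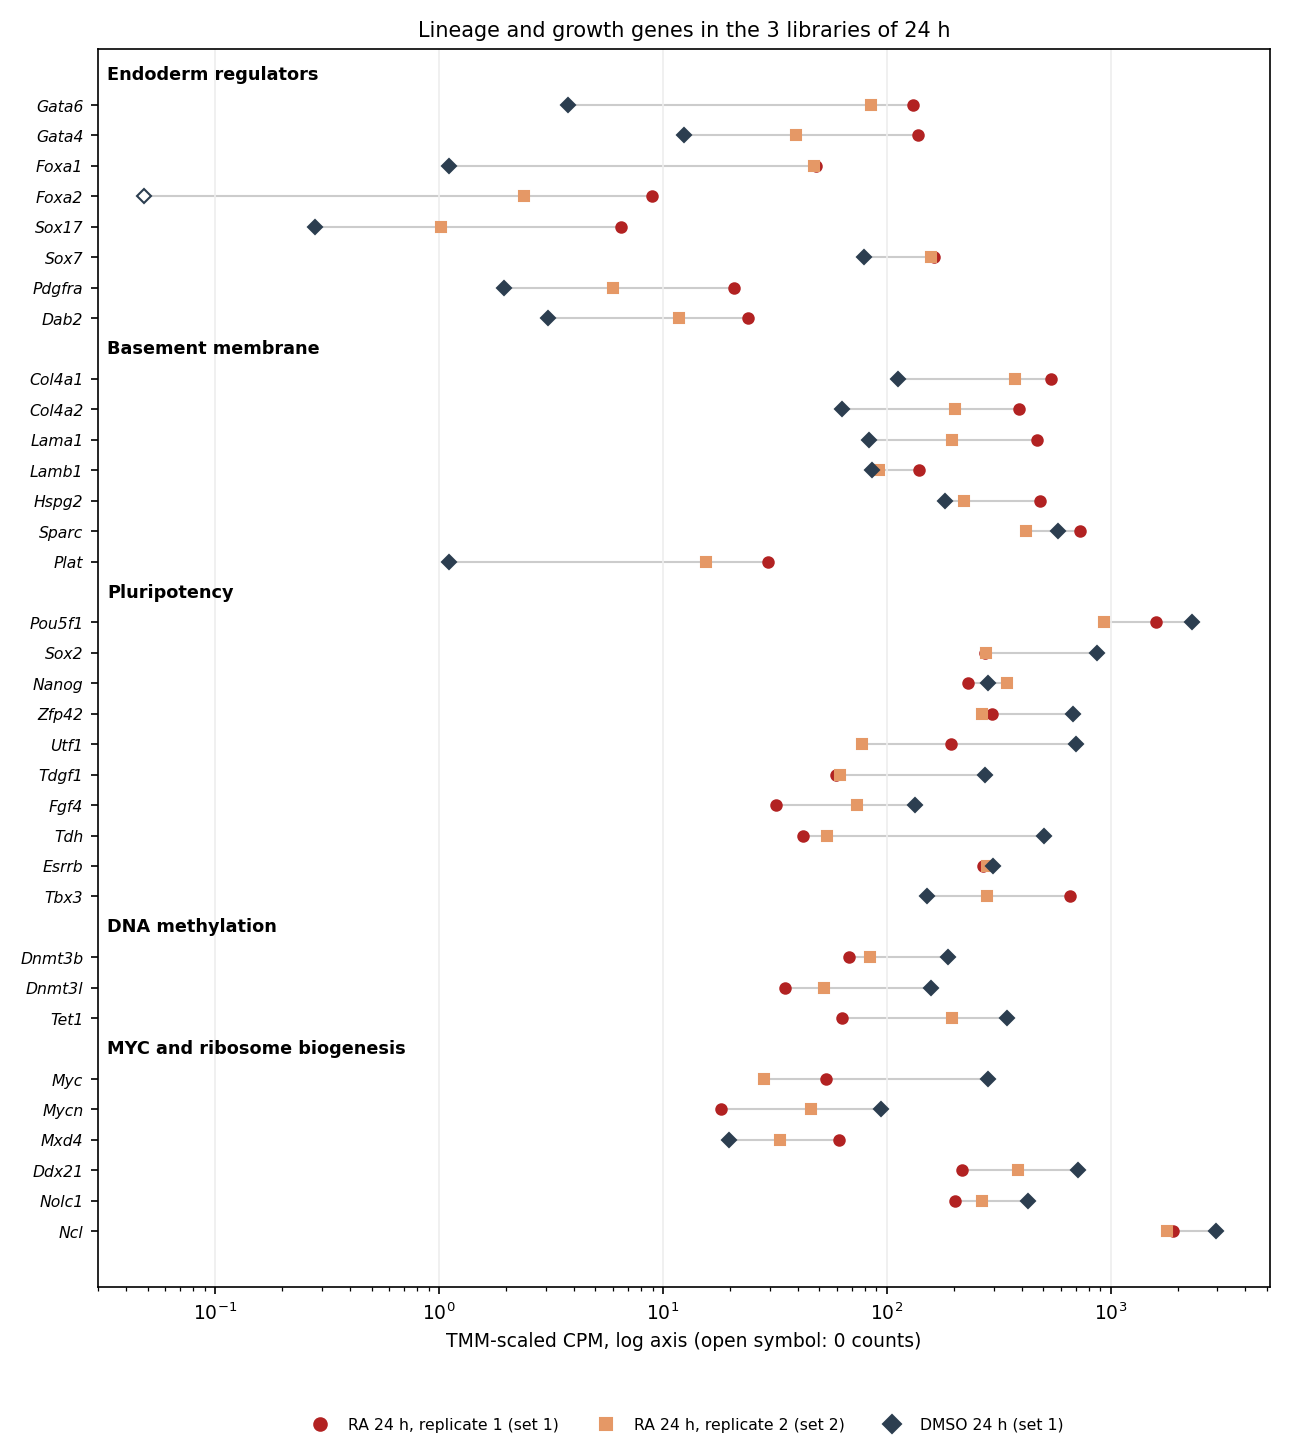
TMM-scaled CPM (log axis) of endoderm, basement membrane, pluripotency, DNA methylation and MYC-related genes in the 3 libraries; open symbols mark 0 counts. The RA libraries lie right of DMSO for the GATA and FOXA genes and left of it for Tdh, Myc and Sox2, while Sparc and Nanog have RA libraries on either side.

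The largest lower share among the 39 lists was in MYC and ribosome biogenesis, where 18 of 28 genes were lower and 1 was higher. That is 64.3% lower against 4.61% of all genes (median log2 change -0.74), on a list chosen with earlier results of these data known. Without the set term 2 members were lower and 0 higher. The summed level was 5513 and 6011 CPM against 9654. Myc, the growth-promoting transcription factor, had 53.5 and 28.4 CPM against 282 (log2 change -2.42 ± 0.30, adjusted p = 0.000331). Mycn, its relative, had 18.1 and 45.9 CPM against 94.4 (log2 change -2.27 ± 0.35, adjusted p = 0.00189). Mxd4, an antagonist of MYC at its binding sites, was the member that rose, with 61.5 and 33.5 CPM against 19.8 (log2 change 1.47 ± 0.24, adjusted p = 0.00172). Ddx21, a nucleolar helicase, had 216 and 387 CPM against 717 (log2 change -1.45 ± 0.22, adjusted p = 0.00133). Nolc1, a nucleolar chaperone, had 201 and 266 CPM against 427 (log2 change -1.08 ± 0.18, adjusted p = 0.00227). Ncl, which encodes nucleolin, had 1894 and 1784 CPM against 2959.9 (log2 change -0.69 ± 0.16, adjusted p = 0.0178). Npm1, which encodes nucleophosmin, had 697 and 869.9 CPM against 1112 (log2 change -0.73 ± 0.19, adjusted p = 0.0248). Of 42 cytosolic ribosomal protein genes 1 was lower, Rpl12 with 48.5 and 37.3 CPM against 79.1 (log2 change -0.72 ± 0.17, adjusted p = 0.0191), and their sum was 16244 and 11099.7 CPM against 17189. Reads of ribosomal protein genes are shared with processed pseudogene copies, so these values are uncertain. The calls that ended when the set term was dropped were those of Mycn (0.351), Mxd4 (0.170), Ddx21 (0.0807), Nolc1 (0.202), Ncl (0.101), Npm1 (0.516) and Rpl12 (0.156), with the adjusted p in brackets. The absence of RA 24 h replicate 1 ended those of Ncl (0.0600), Npm1 (0.0761) and Rpl12 (0.0799).

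Of the cell cycle lists, S phase genes were called in 14.8% and G1 regulators in 17.4% of cases, against 10.4% of all genes tested. Of 27 genes of S phase 3 were lower and 1 higher, of 18 mitotic genes none was called by edgeR (4 had an unadjusted p under 0.05), and of 23 regulators of G1 3 were lower and 1 higher. Pcna, the replication clamp, had 238 and 170.1 CPM against 559 (log2 change -1.13 ± 0.28, adjusted p = 0.0240). Rrm2, a subunit of ribonucleotide reductase, had 284 and 461 CPM against 611 (log2 change -0.85 ± 0.21, adjusted p = 0.0193). Mcm10, an origin factor, had 97.0 and 149 CPM against 171 (log2 change -0.67 ± 0.17, adjusted p = 0.0258). Rpa1, the large subunit of the single-strand binding protein, was the S phase gene that rose, with 957 and 657 CPM against 385 (log2 change 1.14 ± 0.19, adjusted p = 0.00202). In G1 Cdk6, a cyclin D kinase, had 2.45 and 4.10 CPM against 10.2 (log2 change -1.86 ± 0.40, adjusted p = 0.0104). E2f4, a repressive E2F, had 285 and 226 CPM against 515 (log2 change -0.91 ± 0.18, adjusted p = 0.00497). Ccne1, cyclin E, had 113 and 163 CPM against 197 (log2 change -0.69 ± 0.20, adjusted p = 0.0394). Cdkn2a, the locus of the inhibitors p16 and p19, had 13.2 and 8.72 CPM against 3.06 (log2 change 1.92 ± 0.46, adjusted p = 0.0181), while Cdkn1a, which encodes p21, had 43.5 and 36.3 CPM against 38.1 (log2 change 0.03 ± 0.25, adjusted p = 0.958). Ccnd2, a D cyclin, had 103 and 226 CPM against 63.5 (log2 change 1.37 ± 0.59, adjusted p = 0.171). Neither Cdkn1a nor Ccnd2 was called. The p53 targets were called in 18.75% of cases. Of 16 p53 targets 1 was higher, Sesn1 with 123 and 76.8 CPM against 49.6 (log2 change 1.25 ± 0.24, adjusted p = 0.00438), and 2 were lower, Aen with 97.9 and 86.7 CPM against 159 (log2 change -0.72 ± 0.18, adjusted p = 0.0196) and Zmat3 with 109 and 153 CPM against 193 (log2 change -0.65 ± 0.19, adjusted p = 0.0467). Dropping the set term ended calls, with the adjusted p in brackets, for Pcna (0.210), Rrm2 (0.223), Mcm10 (0.465), Rpa1 (0.0519), Cdk6 (0.119), E2f4 (0.0617), Ccne1 (0.419), Cdkn2a (0.0938), Sesn1 (0.295), Aen (0.0919) and Zmat3 (0.277). Leaving out RA 24 h replicate 1 ended those for Pcna (0.193), Rrm2 (0.173), Mcm10 (0.186), Cdk6 (0.0885), Ccne1 (0.230), Cdkn2a (0.121), Aen (0.0763) and Zmat3 (0.290). The fit with other libraries left out ended that of Ccne1 (up to 0.0655) when any one of RA 6 h replicates 1 and 2 and RA 12 h replicates 1 and 2 was left out and that of Zmat3 (up to 0.0575) when any one of 0 h replicates 1, 2 and 4, RA 6 h replicates 1 and 2 and RA 48 h replicates 1 and 2 was left out.

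In the FGF and ERK pathway 3 of 21 genes were higher and 3 lower (median log2 change -0.36), and 2 of the higher genes were receptors. The share called was 28.6%, against 10.4% of all genes tested. Fgfr1 had 297 and 284 CPM against 128 (log2 change 1.12 ± 0.24, adjusted p = 0.00894). Fgfr3 had 14.3 and 11.03 CPM against 2.78 (log2 change 2.30 ± 0.51, adjusted p = 0.0120), while Fgfr2 had 41.4 and 32.6 CPM against 13.4 (log2 change 1.29 ± 0.41, adjusted p = 0.0588) and was just outside the threshold. Of the ligands, Fgf4 fell as given above and Fgf3 had 7.46 and 6.24 CPM against 0.975 (log2 change 2.64 ± 0.74, adjusted p = 0.0358). Spry2 and Spry4, feedback inhibitors that follow ERK activity, fell, Spry2 with 124 and 81.7 CPM against 453 (log2 change -1.74 ± 0.21, adjusted p = 0.000261) and Spry4 with 208 and 195 CPM against 565 (log2 change -1.25 ± 0.18, adjusted p = 0.000890). Dusp9, an ERK phosphatase that was chosen for its large difference in level and is no member of the list, had 921 and 693 CPM against 228 (log2 change 2.02 ± 0.25, adjusted p = 0.000273). The adjusted p without the set term, in brackets, was above the threshold for Fgfr1 (0.0636), Fgfr3 (0.0936), Fgf3 (0.143), Spry2 (0.0962), Spry4 (0.0586) and Dusp9 (0.0535). The calls that needed RA 24 h replicate 1 were those of Fgfr1 (0.0678), Fgfr3 (0.0626) and Fgf3 (0.196).

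In the Nodal, BMP and activin pathway 3 of 25 were higher and 4 lower (28.0% called against 10.4% of all genes tested, median -0.19). Nodal had 111 and 89.96 CPM against 75.6 (log2 change 0.18 ± 0.32, adjusted p = 0.762). Its inhibitor Lefty1 had 316 and 95.1 CPM against 72.0 (log2 change 1.80 ± 0.43, adjusted p = 0.0225). RA replicate 1 was the far higher for Lefty1, whose fitted log2 difference of set 2 over set 1 was -0.95. The fitted change of Lefty1 was 2.14 with RA replicate 1 alone and 1.15 with RA replicate 2 alone. Lefty2 had 104 and 31.6 CPM against 140.2 (log2 change -0.72 ± 0.74, adjusted p = 0.584). Smad6, an inhibitor of BMP signalling, had 28.1 and 18.98 CPM against 4.73 (log2 change 2.42 ± 0.39, adjusted p = 0.00172). The secreted antagonists Fst, which binds activin, and Grem1, which binds BMPs, were low: Fst had 0 and 0.513 CPM against 3.76 (log2 change -4.76 ± 0.76, adjusted p = 0.00160). Grem1 had 0.213 and 0 CPM against 1.95 (log2 change -4.98 ± 1.45, adjusted p = 0.0461), from 2, 0 and 14 counts. Its lowest, median and highest values at 0 h were 0, 0.616 and 1.05 CPM, all below the DMSO library. Against 0 h the fitted change of Grem1 in RA 24 h was -2.02 ± 1.32 and was not called. In the Wnt pathway 5 of 30 were higher and 4 lower (30.0% called, median 0.34). The secreted inhibitors Sfrp5 and Dkk1 rose, Sfrp5 with 133 and 91.1 CPM against 2.51 (log2 change 5.46 ± 0.43, adjusted p = 6.64e-06) and Dkk1 with 16.9 and 2.31 CPM against 0.557 (log2 change 4.48 ± 1.13, adjusted p = 0.0278). Wnt9a, a ligand, had 10.01 and 5.81 CPM against 0.975 (log2 change 2.98 ± 0.73, adjusted p = 0.0197). Lef1, a nuclear effector, fell with 0 and 0.684 CPM against 13.2 (log2 change -6.79 ± 0.90, adjusted p = 0.000565). In the Notch pathway 2 of 16 were lower and none higher, which is 12.5% called, near the share of all genes. Jag1, a ligand, had 2.34 and 3.93 CPM against 23.1 (log2 change -3.20 ± 0.35, adjusted p = 9.14e-05). Notch4 had 26.2 and 21.5 CPM against 49.6 (log2 change -0.87 ± 0.25, adjusted p = 0.0401). Left without the set term, the calls of Lefty1 (0.359), Fst (0.195), Grem1 (0.264), Dkk1 (0.293), Wnt9a (0.0963), Lef1 (0.160) and Notch4 (0.198) ended (adjusted p in brackets). Without RA 24 h replicate 1 those of Lefty1 (0.168), Dkk1 (0.222), Wnt9a (0.148) and Notch4 (0.180) ended. Other libraries left out ended that of Grem1 without RA 24 h replicate 2 (0.103), that of Notch4 without RA 24 h replicate 2 (0.0516), that of Grem1 (up to 0.0736) when any one of 0 h replicates 1, 2 and 4, RA 6 h replicates 1 and 2, RA 12 h replicates 1 and 2 and RA 48 h replicates 1 and 2 was left out and that of Notch4 (up to 0.0740) when any one of 0 h replicate 2, RA 6 h replicates 1 and 2 and RA 12 h replicates 1 and 2 was left out.

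Immediate early genes, which follow mitogen signals within minutes, were lower in 4 of 18 cases and higher in none. Egr1 had 1.70 and 2.39 CPM against 36.6 (log2 change -4.46 ± 0.54, adjusted p = 0.000316), the largest decrease after Otx2 under the naming rule, and its 4 libraries at 0 h ranged from 12.3 to 29.2 CPM. Nr4a1 had 105 and 65.8 CPM against 173 (log2 change -0.74 ± 0.19, adjusted p = 0.0239), and Fos, at 0 and 0.428 CPM against 1.53, was near the limit of detection (log2 change -3.57 ± 0.99, adjusted p = 0.0342). With no set term, Nr4a1 (0.282) and Fos (0.330) missed the threshold at the adjusted p in brackets. So did Nr4a1 (0.0900) and Fos (0.133) without RA 24 h replicate 1. A further library left out ended that of Nr4a1 (0.0548) without RA 6 h replicate 2 and that of Fos (up to 0.0593) when any one of 0 h replicate 2, RA 6 h replicates 1 and 2 and RA 12 h replicates 1 and 2 was left out.

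Of 29 genes of the secretory pathway 8 were higher and none lower (median log2 change 0.45), and 26 of the 29 had a fitted change above 0. Xbp1, which drives expansion of the endoplasmic reticulum, had 107 and 135 CPM against 49.4 (log2 change 1.21 ± 0.19, adjusted p = 0.00131). Creb3l2, a transcription factor for secretory load, had 34.5 and 27.3 CPM against 8.35 (log2 change 2.10 ± 0.34, adjusted p = 0.00189). Sec24d, a coat subunit of export vesicles, had 88.9 and 103 CPM against 39.1 (log2 change 1.27 ± 0.23, adjusted p = 0.00329). Kdelr2, a retrieval receptor, had 136 and 152 CPM against 74.2 (log2 change 0.81 ± 0.23, adjusted p = 0.0359). Calr, the chaperone calreticulin, had 1269.6 and 1546 CPM against 820.2 (log2 change 0.64 ± 0.15, adjusted p = 0.0163). In lysosome and endocytosis 4 of 25 were higher and none lower (16.0% called against 10.4% of all genes tested, median 0.37). Gaa, an acid glucosidase, had 61.8 and 50.9 CPM against 30.2 (log2 change 1.06 ± 0.20, adjusted p = 0.00444). Psap, prosaposin, had 561 and 407 CPM against 303 (log2 change 0.87 ± 0.18, adjusted p = 0.00794). Ctsb, a cathepsin, had 268 and 188 CPM against 165 (log2 change 0.68 ± 0.16, adjusted p = 0.0188). Grn, progranulin, had 167 and 158 CPM against 109.8 (log2 change 0.61 ± 0.18, adjusted p = 0.0444). The calls that ended when the set term was dropped were those of Creb3l2 (0.0914), Kdelr2 (0.170), Calr (0.153), Gaa (0.181), Psap (0.364), Ctsb (0.562) and Grn (0.212), with the adjusted p in brackets. The absence of RA 24 h replicate 1 ended those of Kdelr2 (0.165), Calr (0.0585), Ctsb (0.0824) and Grn (0.128). Single other libraries also mattered, and their absence ended that of Grn without RA 24 h replicate 2 (0.0535), that of Kdelr2 (up to 0.0628) when any one of RA 6 h replicates 1 and 2 and RA 12 h replicates 1 and 2 was left out and that of Grn (up to 0.0894) when any one of 0 h replicate 2, RA 6 h replicates 1 and 2, RA 12 h replicates 1 and 2 and RA 48 h replicates 1 and 2 was left out.

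Of the metabolic lists that for threonine, serine and one-carbon metabolism had the highest share called (35.3%, against 10.4% of all genes tested). Glycolysis and hypoxia response had 10.5% called, which is near that of all genes. Of the 17 genes of threonine, serine and one-carbon metabolism 6 were lower and none higher (median log2 change -0.33). Beside Tdh, Shmt1, a serine hydroxymethyltransferase, had 91.1 and 114 CPM against 211 (log2 change -1.16 ± 0.19, adjusted p = 0.00169). Gldc, of the glycine cleavage system, had 80.9 and 135 CPM against 166 (log2 change -1.0002 ± 0.20, adjusted p = 0.00701). Mthfd1l, of mitochondrial folate metabolism, had 306 and 247 CPM against 481 (log2 change -0.65 ± 0.15, adjusted p = 0.0135). No gene was called by edgeR among 24 nuclear genes of oxidative phosphorylation or 19 of cholesterol synthesis, where 0 and 1 had an unadjusted p under 0.05. In glycolysis and hypoxia response 1 of 19 was lower, Pdk1, a kinase that holds back pyruvate oxidation, with 75.6 and 95.002 CPM against 213 (log2 change -1.33 ± 0.20, adjusted p = 0.00110), and 1 was higher, Vegfa with 290.3 and 253 CPM against 139.6 (log2 change 0.99 ± 0.28, adjusted p = 0.0364). Of 20 genes of the amino acid stress response 1 was lower, Slc7a3, an arginine transporter, with 331 and 384 CPM against 633 (log2 change -0.91 ± 0.16, adjusted p = 0.00258). Dropping the set term ended calls, with the adjusted p in brackets, for Shmt1 (0.0611), Gldc (0.561), Mthfd1l (0.159), Vegfa (0.162) and Slc7a3 (0.0668). Leaving out RA 24 h replicate 1 ended those for Gldc (0.0556), Mthfd1l (0.0678) and Vegfa (0.180). The fit with other libraries left out ended that of Vegfa (up to 0.0592) when any one of RA 6 h replicates 1 and 2 and RA 12 h replicates 1 and 2 was left out.

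Imprinted genes were higher in 5 of 16 cases and lower in none (median log2 change 0.91). H19, a noncoding RNA abundant in extraembryonic endoderm, had 66.6 and 56.1 CPM against 1.81 (log2 change 4.76 ± 0.74, adjusted p = 0.00291). Plagl1, a zinc finger regulator of other imprinted genes, had 220.3 and 248 CPM against 26.2 (log2 change 3.19 ± 0.56, adjusted p = 0.00562). Dlk1, a Notch-like membrane protein, had 9.91 and 5.99 CPM against 1.81 (log2 change 2.18 ± 0.64, adjusted p = 0.0429). Ndn, which encodes necdin, had 50.7 and 43.4 CPM against 17.8 (log2 change 1.27 ± 0.31, adjusted p = 0.0207). Igf2, the growth factor gene next to H19, had 21.9 and 20.4 CPM against 8.49 (log2 change 1.19 ± 0.44, adjusted p = 0.101), which was not called. Of 15 germ cell and meiosis genes 3 were higher and none lower: beside Stra8, Rec8, the meiotic cohesin, had 21.2 and 15.1 CPM against 5.85 (log2 change 1.64 ± 0.41, adjusted p = 0.0212). Kit, the stem cell factor receptor, had 57.2 and 104 CPM against 18.8 (log2 change 1.97 ± 0.36, adjusted p = 0.00381). With no set term, Dlk1 (0.145), Ndn (0.110) and Rec8 (0.0905) missed the threshold at the adjusted p in brackets. So did Dlk1 (0.245), Ndn (0.173) and Rec8 (0.153) without RA 24 h replicate 1. A further library left out ended that of Dlk1 (up to 0.0634) when any one of 0 h replicate 4, RA 6 h replicates 1 and 2 and RA 12 h replicates 1 and 2 was left out.

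Lists for other lineages and for adhesion had 1 to 3 called genes each. Neural markers were higher in 1 of 15 cases, Nes with 113 and 66.4 CPM against 34.8 (log2 change 1.41 ± 0.33, adjusted p = 0.0178), and lower in 2, Neurog3 with 2.24 and 2.74 CPM against 11.97 (log2 change -2.27 ± 0.49, adjusted p = 0.0106) and En2 with 17.5 and 10.005 CPM against 82.6 (log2 change -2.18 ± 0.28, adjusted p = 0.000373). In mesoderm 1 of 14 was called, Pdgfra as above. Of 9 trophoblast markers 1 was called, Gata2 with 4.79 and 4.02 CPM against 0.418 (count ratio 10.4, counting interval 3.46 to 51.6, adjusted p = 0.0359). Cdh5, an endothelial cadherin on the blood and fibroblast list, had 14.8 and 4.36 CPM against 2.65 (log2 change 2.22 ± 0.45, adjusted p = 0.00704). In epithelial adhesion 1 of 25 was higher, Cald1, an actin binding protein, with 56.3 and 101.1 CPM against 29.7 (log2 change 0.94 ± 0.22, adjusted p = 0.0179), and 2 were lower, Esrp1, a splicing regulator of epithelia, with 0.320 and 5.47 CPM against 8.07 (log2 change -3.48 ± 0.64, adjusted p = 0.00454) and Epcam with 63.7 and 68.9 CPM against 119 (log2 change -0.96 ± 0.27, adjusted p = 0.0404). Of 17 integrins and matrix receptors 2 were higher, Itgb4 with 22.3 and 12.5 CPM against 7.24 (log2 change 1.75 ± 0.42, adjusted p = 0.0188) and Itga5 with 244 and 211 CPM against 129.6 (log2 change 0.87 ± 0.17, adjusted p = 0.00567), and 1 lower, Sdc1 with 10.7 and 17.5 CPM against 40.0 (log2 change -1.68 ± 0.32, adjusted p = 0.00426). The adjusted p without the set term, in brackets, was above the threshold for Nes (0.0991), Neurog3 (0.0600), En2 (0.0728), Gata2 (0.155), Cdh5 (0.315), Cald1 (0.281), Esrp1 (0.709), Epcam (0.249), Itgb4 (0.502), Itga5 (0.0761) and Sdc1 (0.0872). The calls that needed RA 24 h replicate 1 were those of Nes (0.160), Neurog3 (0.0953), Gata2 (0.234), Cdh5 (0.0986), Cald1 (0.0659), Epcam (0.142), Itgb4 (0.0529) and Sdc1 (0.0589). Another library left out ended that of Epcam without RA 24 h replicate 2 (0.104) and those of Gata2 (up to 0.0522) and Epcam (up to 0.0762) when any one of 0 h replicate 2, RA 6 h replicates 1 and 2 and RA 12 h replicates 1 and 2 was left out.

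**Figure D4:**
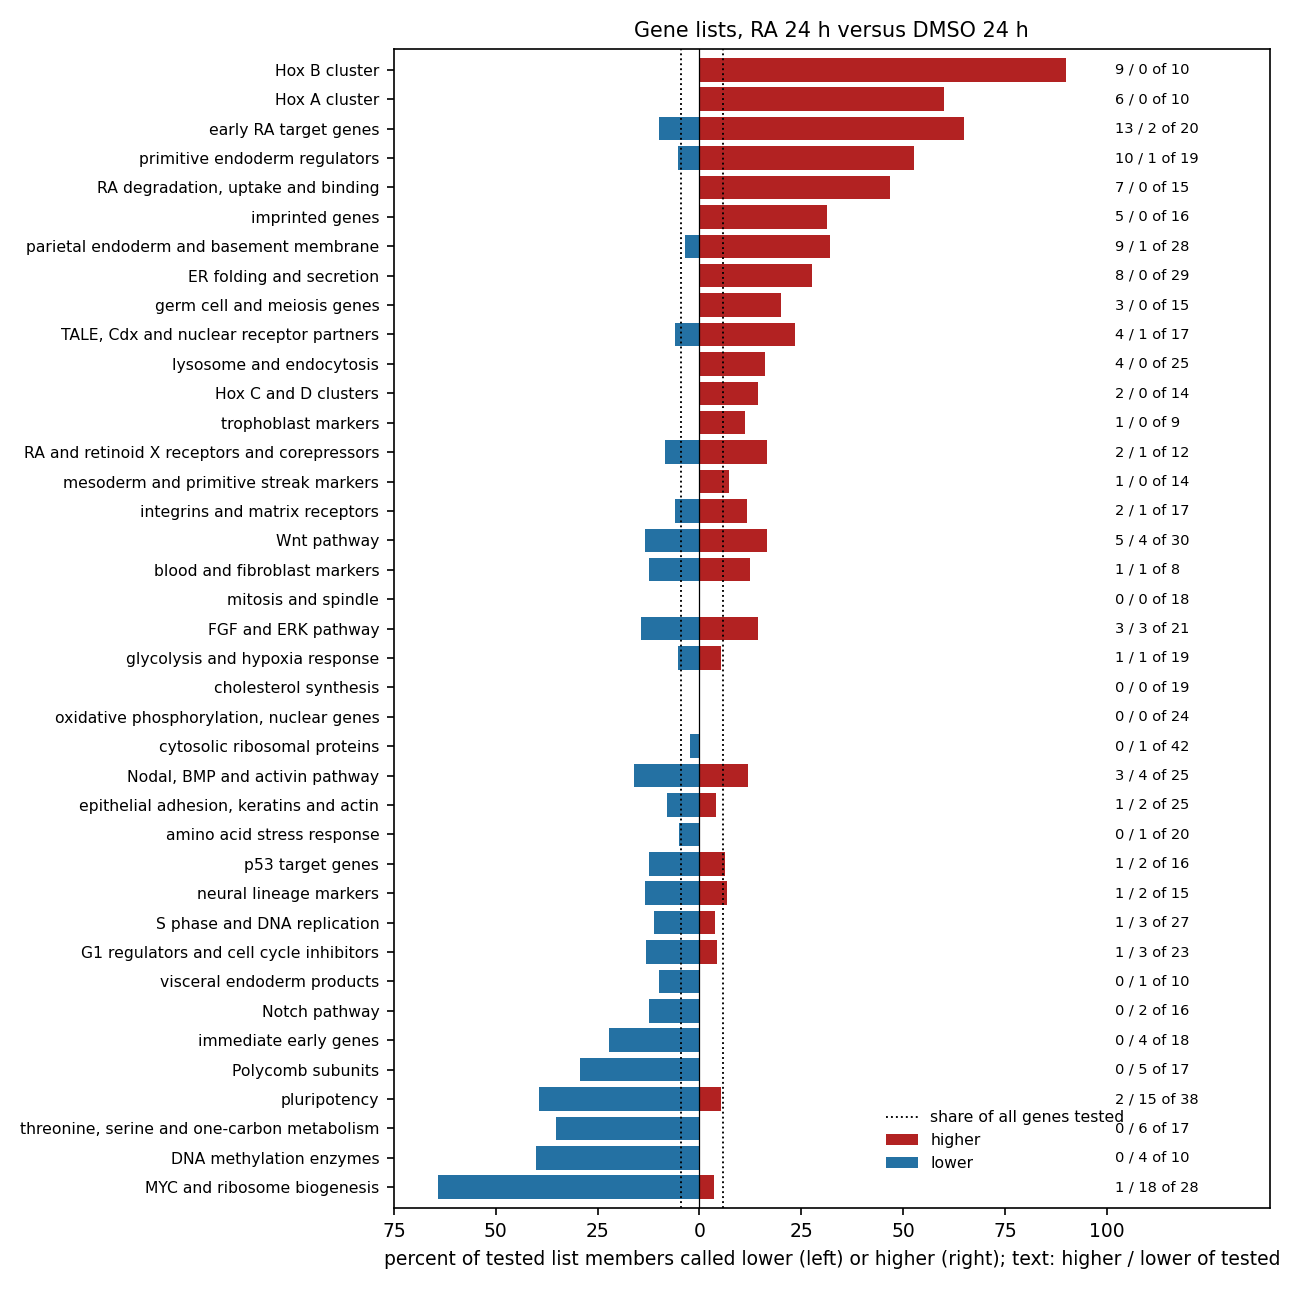
Percent of the tested members of each of the 39 gene lists called higher (right, red) or lower (left, blue) with RA at 24 h, with the counts beside each bar; dotted lines mark the shares over all genes tested, 5.83% higher and 4.61% lower. The Hox, early RA target, RA degradation, primitive endoderm and parietal endoderm lists extend mainly to the right. The list of receptors and corepressors extends to both sides. The MYC, DNA methylation, one-carbon and pluripotency lists extend mainly to the left, and the visceral endoderm list only to the left.

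Further genes were among the 12 largest fitted increases by the naming rule. All 12 had 0 counts in DMSO, so their rank rests on fitted changes against 0 and does not order them against genes with counts in DMSO. Dsc2, a desmosomal cadherin, had 9.27 and 25.1 CPM against 0 (at least 43.2-fold higher, adjusted p = 0.000179). Crygc, a lens crystallin, had 14.1 and 10.1 CPM against 0 (at least 28.4-fold higher, adjusted p = 0.00222). Cidea, a lipid droplet protein, had 12.9 and 5.64 CPM against 0 (at least 21.2-fold higher, adjusted p = 0.00227). Olig3, a helix-loop-helix factor of the neural tube, had 6.71 and 19.5 CPM against 0 (at least 33.0-fold higher, adjusted p = 0.00156). RA replicate 2 was the higher RA library for Dsc2 and Olig3 and the lower for Crygc and Cidea. Cotl1, a filamentous actin binding protein, chosen with those that follow for its large difference in level, had 614 and 359 CPM against 47.8 (log2 change 3.51 ± 0.28, adjusted p = 8.36e-06). In the same class Mdk, a heparin-binding growth factor first found as an RA-induced gene, had 1235 and 704 CPM against 401 (log2 change 1.53 ± 0.21, adjusted p = 0.000611). Slc1a5, a glutamine transporter, had 844 and 602 CPM against 277 (log2 change 1.54 ± 0.16, adjusted p = 7.60e-05). Slc25a4, the mitochondrial ADP/ATP carrier, had 996 and 809 CPM against 457 (log2 change 1.13 ± 0.23, adjusted p = 0.00704). Capns1, a calpain subunit, had 849.5 and 611 CPM against 340.1 (log2 change 1.24 ± 0.20, adjusted p = 0.00192). Islr2, a neuronal membrane protein, had 698 and 324 CPM against 207 (log2 change 2.09 ± 0.49, adjusted p = 0.0227). The calls that ended when the set term was dropped were those of Mdk (0.220), Slc1a5 (0.0503), Slc25a4 (0.186), Capns1 (0.101) and Islr2 (0.691), with the adjusted p in brackets. The absence of RA 24 h replicate 1 ended those of Islr2 (0.0567).

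The largest decreases under the rule, beside Egr1, follow. Otx2, a factor of epiblast and visceral endoderm, had 0.320 and 3.51 CPM against 19.9 (log2 change -5.20 ± 0.78, adjusted p = 0.00222). Foxd3, needed for pluripotent cells, had 7.99 and 2.22 CPM against 108 (log2 change -3.91 ± 0.37, adjusted p = 4.28e-05). Grhl2, an epithelial factor, had 0.213 and 6.76 CPM against 17.5 (log2 change -3.86 ± 0.66, adjusted p = 0.00395). Myb, of proliferating progenitors, had 1.598 and 7.10 CPM against 27.4 (log2 change -3.37 ± 0.52, adjusted p = 0.00173). Enox1, a surface oxidase, had 5.11 and 7.18 CPM against 112 (log2 change -4.07 ± 0.44, adjusted p = 0.000227). Slc27a2, a fatty acid transporter, had 1.81 and 5.64 CPM against 54.0 (log2 change -4.12 ± 0.42, adjusted p = 6.26e-05). Chrna9, a nicotinic receptor subunit, had 0.426 and 2.99 CPM against 21.3 (log2 change -3.42 ± 0.63, adjusted p = 0.00485). Ddx58, which encodes the RNA sensor RIG-I, had 0.852 and 6.16 CPM against 21.6 (log2 change -3.36 ± 0.61, adjusted p = 0.00577). The unnamed loci Gm17232 and Gm13929 had 3.30 and 1.62 CPM against 63.6 (log2 change -4.13 ± 0.31, adjusted p = 4.63e-06) and 9.69 and 16.2 CPM against 155 (log2 change -3.46 ± 0.28, adjusted p = 9.90e-06). Each of these genes was lower in both RA libraries than in DMSO, and for Otx2, Grhl2, Chrna9 and Ddx58 RA replicate 1 was the far lower of the pair. The fitted log2 difference of set 2, that of RA replicate 2, over set 1 was 2.57 for Otx2, 2.09 for Grhl2 and 1.12 for Ddx58. For Chrna9 it was -0.21 and was not called. It was also called for Myb (1.09), Foxd3 (-1.43) and Gm17232 (-1.32), and not for Enox1, Slc27a2 and Gm13929. Nptx1, a secreted pentraxin, had 1.28 and 0.342 CPM against 20.6 (log2 change -4.10 ± 0.72, adjusted p = 0.00287). Its lowest, median and highest values at 0 h were 1.02, 3.79 and 5.41 CPM, the highest being the set 1 library. RA replicate 1 lies within this range, which mixes the sets, and below the 0 h library of its own set. RA replicate 2 lies below the range and the DMSO library above it. Dropping the set term ended calls, with the adjusted p in brackets, for Otx2 (0.346), Foxd3 (0.0519), Grhl2 (0.442), Myb (0.157), Ddx58 (0.208) and Nptx1 (0.0970). Leaving out RA 24 h replicate 1 ended those for Nptx1 (0.0527).

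Further called genes were chosen for a large decrease in level. Pabpc1, the poly(A) binding protein, had 769 and 848 CPM against 1723 (log2 change -0.99 ± 0.20, adjusted p = 0.00704). Hnrnpu, a nuclear matrix protein, had 1135 and 1351 CPM against 2013 (log2 change -0.66 ± 0.18, adjusted p = 0.0355). Ybx1, a cold shock domain protein, had 949.6 and 551 CPM against 1494 (log2 change -0.69 ± 0.17, adjusted p = 0.0227). Dis3, an exosome nuclease, had 465 and 611 CPM against 1083 (log2 change -0.94 ± 0.28, adjusted p = 0.0482). Kpnb1, importin beta, had 979 and 1098 CPM against 1658 (log2 change -0.62 ± 0.17, adjusted p = 0.0301). Mybbp1a, a nucleolar protein, had 720.2 and 692 CPM against 1306 (log2 change -0.81 ± 0.15, adjusted p = 0.00457). Plec, plectin, had 230.2 and 163 CPM against 741 (log2 change -1.41 ± 0.26, adjusted p = 0.00407). Pmm1, a phosphomannomutase, had 267 and 216 CPM against 790.2 (log2 change -1.54 ± 0.22, adjusted p = 0.000882). Apart from those of Pmm1 and Plec these changes were under 1 on the log2 scale. Fitted without the set term, the calls of Pabpc1 (0.0599), Hnrnpu (0.138), Ybx1 (0.344), Dis3 (0.144), Kpnb1 (0.126), Mybbp1a (0.0526) and Plec (0.198) ended (adjusted p in brackets). Without RA 24 h replicate 1 those of Pabpc1 (0.0868), Hnrnpu (0.256), Ybx1 (0.0805), Dis3 (0.316), Kpnb1 (0.219) and Plec (0.0610) ended. Other libraries left out ended that of Hnrnpu (up to 0.0655) when any one of RA 6 h replicate 1 and RA 12 h replicates 1 and 2 was left out, that of Dis3 (up to 0.0711) when any one of 0 h replicates 2 and 3, RA 6 h replicates 1 and 2 and RA 12 h replicates 1 and 2 was left out and that of Kpnb1 (0.0546) without RA 12 h replicate 2.

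By annotation class 889 of 13135 protein-coding genes were higher (6.77%) and 672 lower (5.12%), and 17 of 435 long noncoding RNA genes were higher (3.91%) and 11 lower (2.53%). The difference in share was not tested.

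The control side of the comparison asks what 24 h in DMSO changed from the 0 h cells. No gene was called in DMSO 24 h against the 4 libraries of 0 h (0 of 16155, 0%), with edgeR's smallest adjusted p at 0.903. At an unadjusted p under 0.05 edgeR gave 815 genes (5.04%), and DESeq2 gave 0 called and 569 unadjusted. The median absolute log2 change was 0.251, against 0.457 for RA over DMSO. The 0 h libraries are of both sets, replicate 1 in set 1 as DMSO is and the others in set 2. Tbx3 had 152 CPM in DMSO and lowest, median and highest values of 36.9, 47.1 and 148 at 0 h, where the highest is the set 1 library. Lefty1 had 72.0 CPM in DMSO and 18.7, 22.4 and 29.6 at 0 h, the set 1 library again being the highest. For the strongest RA responders the 0 h libraries were low as well: Rarb ranged from 0.466 to 1.17 CPM at 0 h, Cyp26a1 from 1.65 to 7.49, and Crabp2 from 5.22 to 10.1.

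The last comparison asks whether the difference between RA and DMSO was another at 48 h than at 24 h, each against its own DMSO library. The difference of the differences passed the test for 10 genes (0.0619%), 7 with a more positive difference at 48 h (0.0433%) and 3 with a more negative one (0.0186%). RA against DMSO at 48 h called 3892 genes (24.1%). Lama1 had 1778 and 926 CPM against 84.5 at 48 h, and its difference grew by 2.07 ± 0.28, adjusted p = 0.0256. Lamb1, not called at 24 h, had 922 and 701 CPM against 109 at 48 h (change of the difference 2.48 ± 0.36, adjusted p = 0.0404). Among imprinted genes Igf2 had 134 and 311 CPM against 4.02 at 48 h (4.42 ± 0.64, adjusted p = 0.0404). Peg3, a zinc finger gene, had 710.4 and 1444 CPM against 148 (2.79 ± 0.35, adjusted p = 0.0246). Fst was lower with RA at 24 h and had 4.72 and 13.8 CPM against 2.46 at 48 h (5.70 ± 0.94, adjusted p = 0.0488). Tpm1, a tropomyosin, had 292 and 531 CPM against 90.5 (1.73 ± 0.28, adjusted p = 0.0453). Clic5, an actin-associated protein of the chloride channel family, had 64.2 and 41.99 CPM against 1.81 (4.36 ± 0.71, adjusted p = 0.0453). The 3 that turned more negative were Cpne5, Stmn3 and Kyat3. Cpne5, a copine, had 44.4 and 26.3 CPM against 56.5 at 24 h and 6.36 and 2.17 CPM against 43.03 at 48 h (-2.71 ± 0.43, adjusted p = 0.0453). Stmn3, a stathmin, had 55.3 and 22.7 CPM against 22.6 at 24 h and 5.64 and 3.92 CPM against 21.1 at 48 h (-2.85 ± 0.46, adjusted p = 0.0453). Kyat3, a kynurenine aminotransferase, had 107 and 60.5 CPM against 55.6 at 24 h and 24.6 and 18.03 CPM against 70.8 at 48 h (-2.28 ± 0.37, adjusted p = 0.0453). Other genes of the endoderm programme had higher values at 48 h whose change of the difference was not called: Dab2 had 575 and 612 CPM against 6.48 (4.10 ± 2.16, adjusted p = 0.592). Col4a1 had 1916 and 1662 CPM against 74.9 (2.58 ± 0.48, adjusted p = 0.0714). Sox17 had 78.4 and 30.05 CPM against 1.43 (1.76 ± 1.25, adjusted p = 0.710). The RA-handling genes were lower in RA at 48 h than at 24 h for Stra6, with 37.1 and 34.8 CPM against 0.518, and Crabp2, with 167 and 115 CPM against 2.98. Their change of the difference was not called either (adjusted p = 0.354 for Stra6, and 0.62 ± 0.37, adjusted p = 0.622 for Crabp2). None of the 10 was called without the set term, and leaving out single libraries gave 2 to 55 genes.

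**Figure D5:**
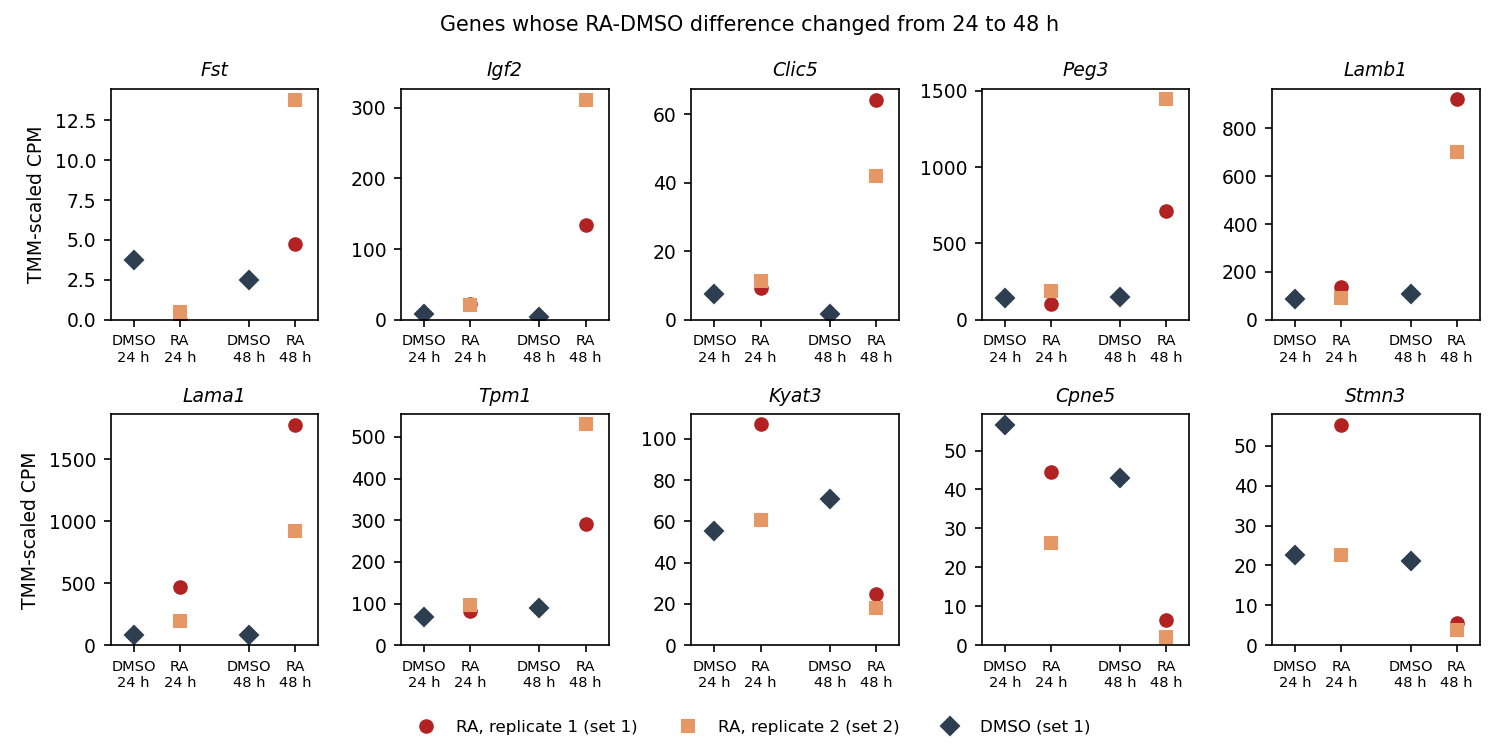
TMM-scaled CPM (linear axis from 0) at 24 and 48 h for the 10 genes whose RA-DMSO difference was called different between the times; circles and squares are RA replicates 1 and 2 and diamonds the DMSO libraries. The RA libraries of 48 h lie above those of 24 h in 7 genes and below them in 3.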

How the data were processed

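Messenger RNA of F9 cells was sequenced in 14 libraries of the series. Per the labels' protocols, RNA was extracted with TRIzol and libraries were run on 2 kinds of Illumina instrument; which library ran on which is not given in the sources used here. The submitters' processing notes name TopHat2 2.0.7, HTSeq, DESeq and the mm9 build, with no role stated. The deposited tables hold whole-number counts per gene made by the authors, 36814 genes of which 31841 had a symbol in the name table, and 5 rows for reads given to no gene (72.52 to 76.78% of reads), which were left out of library sizes and tests. The annotation and strand setting are not given in the sources used here.

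From these, edgeR 4.0.16 (R 4.3.3) fitted all 14 libraries with a term per group and a term for the library set (55% or more of reads in no feature is set 1), TMM scaling, filterByExpr and robust quasi-likelihood tests with Benjamini-Hochberg adjustment over 16155 genes; the residual degrees of freedom were 6. The set term was used because DMSO and RA replicate 1 share a set that RA replicate 2 does not. Alternatives were no set term, RLE scaling, DESeq2 1.42.0, other filters, other controls and leaving out each library. The fit was tested on simulated data.

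Genes were named as follows: among called genes with a symbol, at least 5 CPM on average and both RA libraries on the same side of DMSO, the 12 largest increases and 12 largest decreases; 40 fixed genes; up to 4 called members of each of 39 lists; and the 5 largest changes each way in the other comparisons. The genes chosen by difference in level, Zfp703, Tinagl1, Slc25a21, the run on chromosome 5 and some further list members were added after their values were seen. Members and lists were chosen with earlier results of these data known. Promoters came from RefSeq (GRCm38.p6); none of the mm9 binding regions was used. Values of some genes are not reported here.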

Additional observations from a re-analysis of the deposited data

Results flagged for a closer look

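For 10 genes the difference between RA and DMSO was not the same at 24 h and 48 h by a test of the difference itself (edgeR's quasi-likelihood test, adjusted over all genes tested), and each stands in the plot of the genes by time. The value given first is the log2 change of the difference, 48 h minus 24 h; after it stand the log2 changes of RA over DMSO at 24 h and at 48 h with their standard errors. Fst, the activin antagonist follistatin, changed by 5.70 ± 0.94 (adjusted p = 0.0488), from -4.76 ± 0.76 at 24 h to 0.93 ± 0.61 at 48 h. Igf2, an imprinted growth factor gene, changed by 4.42 ± 0.64 (adjusted p = 0.0404), from 1.19 ± 0.44 at 24 h to 5.61 ± 0.52 at 48 h. Clic5 changed by 4.36 ± 0.71 (adjusted p = 0.0453), from 0.53 ± 0.47 at 24 h to 4.89 ± 0.58 at 48 h. Peg3, an imprinted zinc finger gene, changed by 2.79 ± 0.35 (adjusted p = 0.0246), from -0.29 ± 0.25 at 24 h to 2.496 ± 0.28 at 48 h. Lamb1, the laminin beta 1 chain, changed by 2.48 ± 0.36 (adjusted p = 0.0404), from 0.56 ± 0.27 at 24 h to 3.04 ± 0.30 at 48 h. Lama1, the laminin alpha 1 chain, changed by 2.07 ± 0.28 (adjusted p = 0.0256), from 2.45 ± 0.22 at 24 h to 4.52 ± 0.25 at 48 h. Tpm1 changed by 1.73 ± 0.28 (adjusted p = 0.0453), from 0.21 ± 0.20 at 24 h to 1.94 ± 0.22 at 48 h. Kyat3 changed by -2.28 ± 0.37 (adjusted p = 0.0453), from 0.90 ± 0.27 at 24 h to -1.38 ± 0.26 at 48 h. Cpne5 changed by -2.71 ± 0.43 (adjusted p = 0.0453), from -0.40 ± 0.28 at 24 h to -3.10 ± 0.31 at 48 h. Stmn3 changed by -2.85 ± 0.46 (adjusted p = 0.0453), from 1.03 ± 0.32 at 24 h to -1.82 ± 0.34 at 48 h. The number of the 19 other settings and left-out libraries in which each gene was called was, in brackets, Peg3 (16), Lama1 (15), Igf2 (12), Tpm1 (9), Lamb1 (8), Fst (8), Stmn3 (7), Cpne5 (7), Clic5 (7) and Kyat3 (7), and none was called without the library set term, where the lowest adjusted p was 0.738. Each of these contrasts rests on 1 DMSO library per time.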

How the results depend on the processing

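Of the 198 genes tracked, 174 were called, and no setting reversed the direction of a gene called in either fit; without the library set term 108 fell short of the threshold and without RA 24 h replicate 1, 68 did. The count of genes called for RA against DMSO at 24 h was 1687 and moved to 305 without the set term, to 265 with the 3 libraries of the comparison fitted alone, and to 3120 with the 24 and 48 h DMSO libraries pooled as the control. Leaving out single libraries gave 587 to 2682 genes, the extremes being without RA 24 h replicate 1 and without replicate 2. Without the set term and RA 24 h replicate 1 it was 97, and without the set term and replicate 2 it was 323; both were chosen after seeing the data. RLE scaling (1727), DESeq2 (1951, of which 1602 shared), no low count filter (1725), a stricter filter, 1 CPM or more in 4 libraries (1749), and an added log2 change of at least 1 (1160) stayed within 1.5 times. With no low count filter the calls of Cyp26b1, Sox7, Col4a2, Tdgf1, Lefty1, Rxrg, Tet1, Dkk1, Grn, Pdgfra, Islr2, Dis3, Tctn1 and Srgn ended, with DESeq2 those of Dkk1, Pdgfra, Gata2 and Hoxb7, with the pooled control those of Notch4, Cdkn2a and Grn, with the stricter filter that of Epcam and with RLE scaling that of Grn. DMSO 24 h against 0 h gave 0 called genes under every setting run, left-out libraries included. For the change of the RA difference from 24 h to 48 h the count was 10 and became 0 without the set term (also without RA 24 h replicate 1 or 2), 105 with DESeq2, 72 with no low count filter and 5 with the stricter filter. Leaving out single libraries gave 2 to 55. The cause of these shifts was not tested. No paired analysis was possible because the DMSO libraries carry no replicate number in the labels; set 1 holds replicate 1 of each other group and both DMSO libraries, so the set term of the main analysis also separates replicate 1 from the rest, and the lone DMSO library was assumed to vary like the other groups. Counts were simulated in a single draw for RA against DMSO at 24 h (16155 genes, 100 changed per fold size). The changed genes were taken only from those with a mean of at least 2 CPM, so recovery at lower levels was not measured. The fit with the set term recovered 34% of changes of 2-fold and 76% of changes of 4-fold, with 10 false calls. The fit without it recovered 2% and 36%, with 0 false calls. The simulated counts were drawn from the main fit, with its set effect and its spread per gene. They therefore cannot show which of these fits is right for the data. RA 24 h replicate 1 was given no extra spread of its own in them. Depth limits genes near 3 counts in DMSO, 0.418 CPM, below which a ratio is a bound.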
